A study of Mus musculus with 6 samples.

Results

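The cytosolic and mitochondrial heat shock chaperones were examined in the organ of Corti, the strip of hair cells and supporting cells that detects sound, of mice that lack pejvakin and of wild-type mice. A list of 10 genes defined the group: Hspa1a, Hspa1b, Hspa8, Hsp90aa1, Hsp90ab1, Hspb1, Hsph1, Dnajb1, Hspd1 and Hspe1. A probe set counted as a member when the platform annotation gave it 1 gene symbol and that symbol was on the list. This held for 15 of the 35557 probe sets on the array, which covered 8 of the 10 genes. Hspb1, Hspd1 and Hspe1 had 2 such probe sets each, Hspa8 and Hsp90aa1 had 3 each, and Hspa1a, Hsph1 and Dnajb1 had 1 each. Hspa1b was named only on a probe set shared with Hspa1a, and Hsp90ab1 was on no listed probe set, so neither has a value of its own here. Another 12147 probe sets were not in the annotation and 1621 carried several symbols, and none of these stood for a gene.

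The tissue came from mice at postnatal day 15 on a mixed C57BL/6J-129/Sv background, either Pjvk-/- (knockout, 3 arrays) or Pjvk+/+ (wild-type, 3 arrays). Total RNA was hybridised to Affymetrix mouse gene ST arrays, and every value below is a log2 probe set signal as deposited. Pejvakin is a gasdermin-family protein whose loss causes deafness, and the title of the series ties it to the proliferation of peroxisomes after sound exposure. No label records a sound exposure or a heat treatment of these animals, and none says whether an array held RNA of 1 animal or of several.

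Heat shock proteins are chaperones that bind unfolded or partly folded proteins. HSP70 proteins bind and release exposed hydrophobic stretches in a cycle driven by ATP, J-domain proteins of the HSP40 family start that cycle, nucleotide exchange factors such as HSP110 reset it, and HSP90 finishes the folding of kinases, receptors and other clients. In mitochondria a chaperonin barrel and its lid fold imported proteins. Under stress the transcription factor HSF1 binds heat shock elements, inverted repeats of the letters GAA, and raises the inducible members within minutes to hours. In the cochlea, heat or noise is known to induce HSP70, and induced HSP70 is known from mouse studies to protect hair cells against ototoxic drugs.

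The promoter letters are shown first, because heat shock elements were searched for in them, and because they show how alike Hspa1a and Hspa1b are. RefSeq promoter windows on GRCm38.p6 were found for 7 of the 10 genes, and the 150 bases before each annotated start were searched for GAANNTTC and TTCNNGAA, each of which reads the same on both strands and can overlap the other. In capitals are the GAA and TTC letters of each match.
Hspa1a, chr17:34972157-34972306, minus strand: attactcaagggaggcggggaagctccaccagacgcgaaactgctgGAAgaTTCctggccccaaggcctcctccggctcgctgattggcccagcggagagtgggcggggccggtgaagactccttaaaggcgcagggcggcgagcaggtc
Hspa1b, chr17:34959239-34959388, minus strand: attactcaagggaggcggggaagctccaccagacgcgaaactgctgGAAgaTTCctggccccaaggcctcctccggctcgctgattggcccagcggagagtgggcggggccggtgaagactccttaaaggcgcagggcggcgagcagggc
Hspb1, chr5:135887769-135887918, plus strand: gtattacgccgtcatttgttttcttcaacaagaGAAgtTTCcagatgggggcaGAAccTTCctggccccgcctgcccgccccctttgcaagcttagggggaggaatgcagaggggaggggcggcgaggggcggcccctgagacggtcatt
Hsph1, chr5:149636316-149636465, minus strand: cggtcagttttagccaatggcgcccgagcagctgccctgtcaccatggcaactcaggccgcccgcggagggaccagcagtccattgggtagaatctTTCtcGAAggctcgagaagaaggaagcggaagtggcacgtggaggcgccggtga
Hspe1, chr1:55087998-55088147, plus strand: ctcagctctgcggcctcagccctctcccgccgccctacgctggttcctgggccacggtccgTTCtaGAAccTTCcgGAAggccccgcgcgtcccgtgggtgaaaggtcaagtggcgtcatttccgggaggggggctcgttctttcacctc
Dnajb1, chr8:83608025-83608174, plus strand: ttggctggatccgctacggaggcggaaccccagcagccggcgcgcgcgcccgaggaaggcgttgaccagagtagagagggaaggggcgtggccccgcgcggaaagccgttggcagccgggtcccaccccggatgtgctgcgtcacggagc

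Matches lay in 7 of the 10 windows of these genes, against 7.73% of all 32851 promoter windows of this length. The Hsph1 windows overlap and hold the same match. By gene, matches lay at 6 of the 7, and the share over all genes is not given here. The Hspa1a and Hspa1b windows were 99.3% identical, with 1 base of 150 different, and both held a GAANNTTC that began 104 bases before the start. Hspb1 held matches 117 and 97 bases before its start. The Hspe1 window held 3 overlapping matches in a row, whereas 2 or more matches at any spacing were found in 0.606% of all windows. The same letters, read on the other strand, lie before one annotated start of Hspd1, since Hspe1 and Hspd1 are transcribed away from each other from a shared promoter region. The Dnajb1 windows held neither motif in these 150 bases. A match describes the letters and not binding, which was not measured here.

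None of the 8 measured chaperone genes passed the test for a difference between knockout and wild-type. With limma and Benjamini-Hochberg adjustment over all 19938 genes, 0 of 8 passed an adjusted p of 0.05, where 0.0351% of all genes did. At an unadjusted p under 0.05 there were again 0 of 8, where 12.4% of all genes were found. Their log2 fold changes, knockout minus wild-type, ran from -0.17 for Dnajb1 to 0.02 for Hspa1a, with 7 genes lower, 1 higher and a median of -0.07. Over all genes 53.8% were lower and the median was -0.01. A p above the threshold does not show that the genotypes are equal, so the 95% interval of each difference is given with it below. The widest of the 8 intervals, that of Dnajb1, reached down to 0.776 times the wild-type signal, and the highest upper bound, that of Hspa1a, was 1.15 times.

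**Figure D1:**
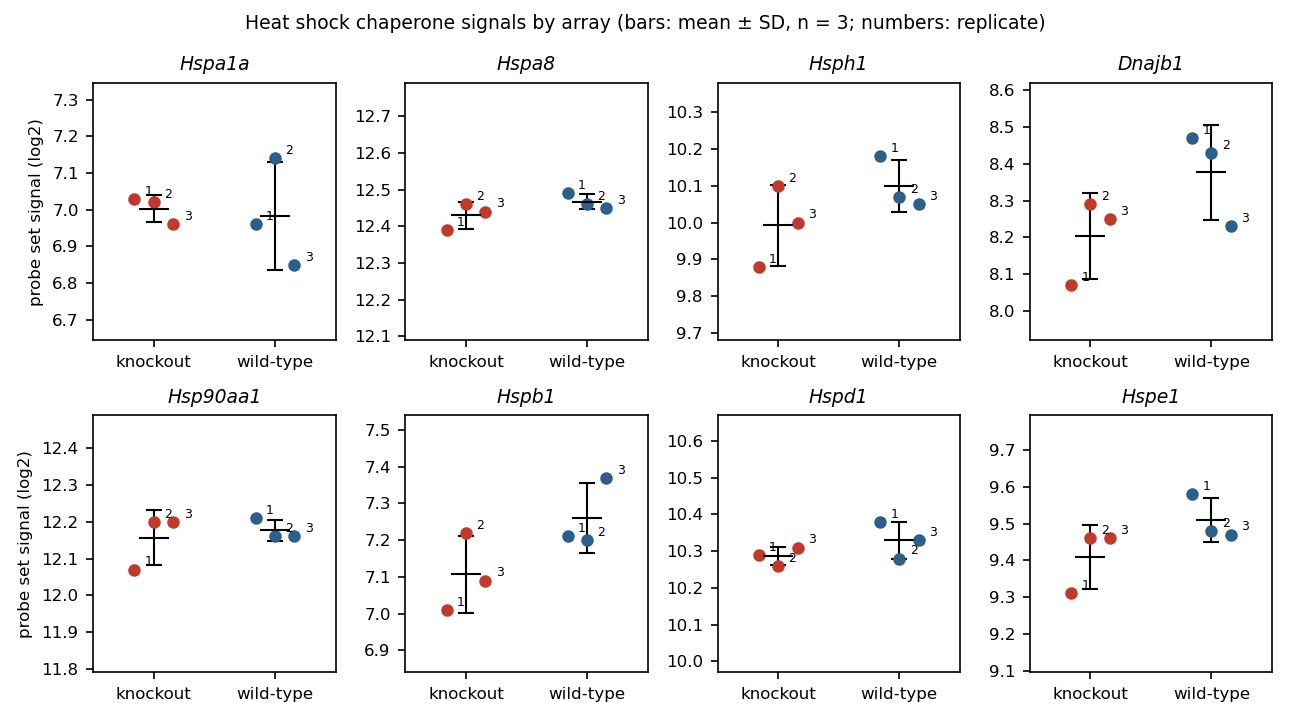
Log2 probe set signal of the 8 measured heat shock chaperones on each array, knockout at the left and wild-type at the right of each panel, with the mean and SD of 3 arrays as bars and replicate numbers beside the points. Every panel spans 0.7 log2 units; the genotypes overlap in all genes but Hspe1, where the highest knockout and lowest wild-type arrays lie 9.46 and 9.47.

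Hspa1a encodes the stress-inducible cytosolic HSP70, the member most often read as a sign of an active heat shock response. Its probe set 10450369 read 7.03, 7.02 and 6.96 in the knockout, against 6.96, 7.14 and 6.85 in the wild-type. All 3 knockout values lay within the range of the wild-type values. The log2 difference was 0.02 (standard error, SE, 0.08), with a 95% interval of -0.16 to 0.20 and an adjusted p of 0.933 in limma. With Y-linked signal as a covariate it was 0.13 (limma adjusted p = 0.945). That covariate itself separates the genotypes, so this value cannot show whether Hspa1a differs. Probe set 10450367, annotated to Hspa1a and Hspa1b together and therefore outside the group, read 7.93, 8.22 and 8.21 in the knockout and 8.09, 8.17 and 7.99 in the wild-type. There too the genotypes overlapped, with a difference of 0.04 (SE 0.10). Since the genes are near-identical copies, how much of either signal comes from each was not assessed.

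Hspa8 encodes HSC70, the constitutive HSP70 that folds new proteins and strips clathrin from vesicles. The brightest of its 3 probe sets, 10368025, read 12.39, 12.46 and 12.44 in the knockout and 12.49, 12.46 and 12.45 in the wild-type. The genotypes overlapped, and the difference was -0.04 (SE 0.05, 95% interval -0.16 to 0.08, limma adjusted p = 0.791). Probe set 10528021 gave -0.04 as well, with genotypes that did not overlap by the last decimal. Probe set 10584572 gave a larger difference of -0.13 (SE 0.06), with 12.02, 12.00 and 12.13 in the knockout and 12.21, 12.13 and 12.21 in the wild-type. On that probe set the highest knockout array equalled the lowest wild-type array. The probe sets of Hspa8 thus disagreed in size, from -0.13 to -0.04, while all 3 were lower in the knockout. The brightest stood for the gene, and which of the 3 reads Hspa8 most specifically was not assessed. A further pair of probe sets, annotated to Hspa8 together with 2 small nucleolar RNA genes, gave -0.05 and -0.04.

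The partners of HSP70 lay lower by somewhat more, within the spread of the arrays. Hsph1 encodes HSP105, an HSP110 that exchanges nucleotide on HSP70 and helps pull proteins out of aggregates. It read 9.88, 10.10 and 10 in the knockout and 10.18, 10.07 and 10.05 in the wild-type, so that knockout replicate 2 lay among the wild-type arrays. The log2 difference was -0.11 (SE 0.07, 95% interval -0.27 to 0.06, limma adjusted p = 0.553), and it was -0.05 without knockout replicate 1 and -0.07 without wild-type replicate 1. Dnajb1 encodes the inducible HSP40 that brings clients to HSP70. It read 8.07, 8.29 and 8.25 in the knockout and 8.47, 8.43 and 8.23 in the wild-type, and wild-type replicate 3 lay below 2 of the knockout arrays. Its difference of -0.17 (SE 0.08) was the lowest of the 8, with a 95% interval of -0.37 to 0.02 and a limma adjusted p of 0.431. Over the alternatives the Dnajb1 difference ran from -0.25 to -0.05, the smallest in size with Y-linked signal, which itself separates the genotypes, as a covariate.

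Hsp90aa1, which encodes the stress-inducible HSP90 alpha, was flat across the arrays except for 1. Probe set 10378848 read 12.07, 12.20 and 12.20 in the knockout and 12.21, 12.16 and 12.16 in the wild-type. Knockout replicate 1 was the low array, and the other knockout arrays lay between the wild-type values. The log2 difference was -0.02 (SE 0.06, 95% interval -0.15 to 0.11, limma adjusted p = 0.908), and without knockout replicate 1 it was 0.02. The 2 other probe sets of the gene, 10402615 and 10490946, gave -0.01 and -0.02, and on both knockout replicate 1 was again the lowest array.

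Hspb1 encodes HSP25 of the mouse, a small heat shock protein that holds unfolded proteins without ATP and acts on actin filaments. Probe set 10408928 read 7.01, 7.22 and 7.09 in the knockout and 7.21, 7.20 and 7.37 in the wild-type. Knockout replicate 2 lay above 2 wild-type arrays. The log2 difference was -0.15 (SE 0.08, 95% interval -0.32 to 0.02, limma adjusted p = 0.431). Probe set 10526410 gave -0.16, with 6.96, 7.10 and 7.03 in the knockout and 7.14, 7.13 and 7.29 in the wild-type, where the genotypes did not overlap. Over the alternatives the Hspb1 difference ran from -0.29 to -0.10. The first came with Y-linked signal, which itself separates the genotypes, as a covariate, and the second without wild-type replicate 3. The smallest limma adjusted p of Hspb1 was 0.293.

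Hspd1 and Hspe1 encode the mitochondrial chaperonin HSP60 and its lid HSP10, which work as 1 folding chamber. Hspd1 (probe set 10375240) read 10.29, 10.26 and 10.31 in the knockout and 10.38, 10.28 and 10.33 in the wild-type, overlapping, with a log2 difference of -0.04 (SE 0.05, 95% interval -0.17 to 0.08, limma adjusted p = 0.761). Its other probe set, 10354732, gave -0.04 too. Hspe1 (probe set 10346303) read 9.31, 9.46 and 9.46 in the knockout and 9.58, 9.48 and 9.47 in the wild-type. These genotypes did not overlap, by the last printed decimal, and the exact permutation test (two-sided) returned p = 0.1, the lowest that 3 arrays against 3 allow. The difference was -0.10 (SE 0.07, 95% interval -0.25 to 0.05, limma adjusted p = 0.541), and it was -0.05 without knockout replicate 1 and -0.065 without wild-type replicate 1. The second Hspe1 probe set, 10455588, gave -0.07 with overlapping genotypes. On the probe set used for each gene, 1 member of 8, Hspe1, had genotypes that did not overlap. Over all genes 17.8% did not overlap. Hspa8 and Hspb1 each had a further probe set without overlap, as given above. Hspe1 overlapped when the arrays were centred on their medians or normalised by quantiles or cyclic loess, and when all probe sets of the gene were averaged.

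**Figure D2:**
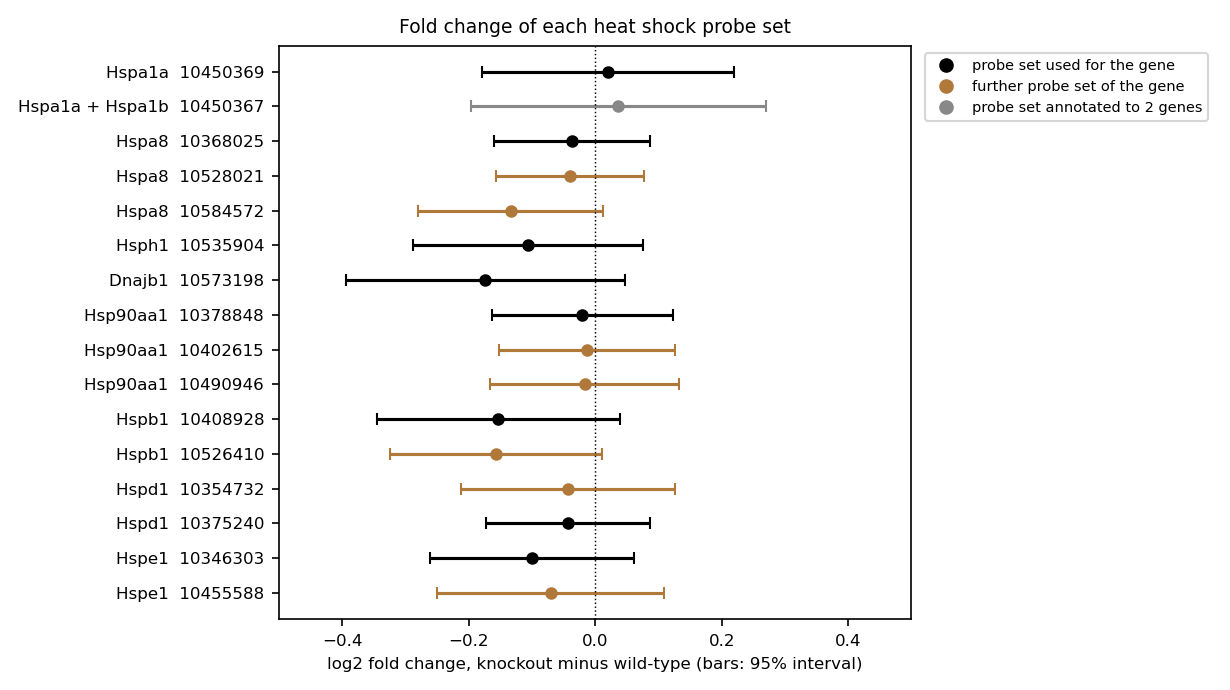
Log2 fold change, knockout minus wild-type, of each of the 15 single-gene heat shock probe sets and of the probe set annotated to Hspa1a and Hspa1b together (grey), with 95% intervals as bars. The intervals come from the limma fit over all 35557 probe sets; all of them include 0, 14 of the 15 single-gene probe sets lie below 0, and 10584572 of Hspa8 lies at -0.13 while its sister probe sets lie at -0.04.

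Within each genotype 1 array stood apart for most of the chaperones. Knockout replicate 1 was the lowest of the 6 arrays for 6 of the 8 genes (Hspa8, Hsp90aa1, Hspb1, Hsph1, Dnajb1 and Hspe1), against 17.5% of all genes and 23.1% of genes in signal deciles 8 to 10 (the genes ranked by mean signal and divided into 10 equal bins, 1 the dimmest). Wild-type replicate 1 was the highest for 6 of the 8 (Hspa8, Hsp90aa1, Hsph1, Dnajb1, Hspd1 and Hspe1), against 20.8% of all genes and 36.1% of genes in signal deciles 8 to 10. The 102 other chaperone genes described below followed the same order in part, with 41.2% lowest in knockout replicate 1 and 39.2% highest in wild-type replicate 1. In knockout replicate 1 the median deviation of the 8 genes from their own means over the arrays was -0.12, and in wild-type replicate 1 it was 0.06. The other 4 arrays had median deviations between -0.02 and 0.02. Hspa1a did not follow this order, with its highest value in wild-type replicate 2 and its lowest in wild-type replicate 3. Without knockout replicate 1 the median log2 fold change of the 8 genes was -0.05, and without wild-type replicate 1 it was -0.04.

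**Figure D3:**
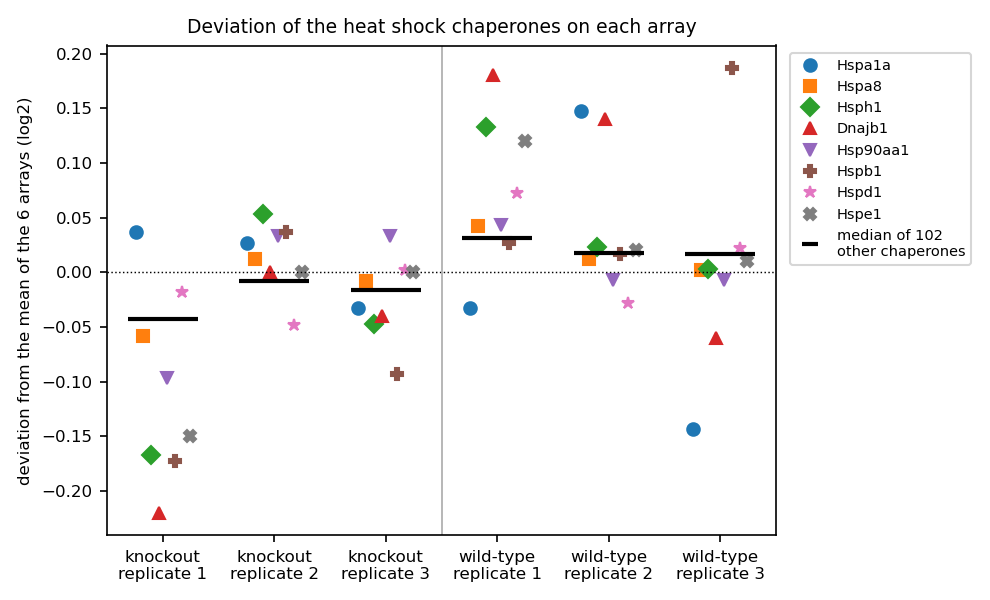
Deviation of each heat shock chaperone from its own mean over the 6 arrays (log2), by array, knockout arrays left of the grey line and wild-type arrays right of it, with the median of 102 other chaperone genes as a black bar. Knockout replicate 1 holds the lowest values of 6 of the 8 genes and wild-type replicate 1 the highest of 6; the black bars run from -0.04 to 0.03.

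The pattern over the 6 arrays was set against the genes at or above the median signal, as a description of which profiles were alike. For Hspa8 the 4 most similar among 9747 genes were Zfp574, Ift172, Acbd6 and Cep170b, each with a Pearson r of 0.99, and their log2 fold changes ran from -0.11 to -0.06. For Hspa1a the 4 most similar among 9748 genes were Ess2 (r = 0.98), Slc25a29 (r = 0.97), Pcif1 (r = 0.96) and Tmprss6 (r = 0.95), with fold changes between -0.01 and 0.02. The genes were picked for their r, so it carries no test, and none of these 8 is on the chaperone lists used here. Among the members, Hspa8 had nearly as high an r with Hsph1 (0.989) and Hspe1 (0.978), and 0.923 with Dnajb1, over the same 6 arrays.

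The rest of the chaperone system was read from 8 lists that held 104 genes beside the members, 102 of which were measured. In limma, 0 of 102 passed the adjusted p of 0.05. At an unadjusted p under 0.05, 4 were lower and 1 was higher, where 6.66% and 5.74% of all genes were. The arrays did not overlap for 15 lower genes, where 11.3% of all genes were lower in that way, and for 1 higher gene, where 6.59% were. As with the members, most of these genes lay slightly below 0: 76 were lower, 24 higher and 2 at exactly 0, with a median of -0.04. Genes of comparable brightness did so as well, with medians between -0.06 and -0.04 in each of the signal deciles 7 to 10, in which 80 of the 102 genes and 6 of the 8 members fall. The part of that slope in the chaperones' small negative differences was not tested. Relative to the median of their own signal decile, 3 members lay between 0.01 and 0.02, Hspd1 lay at the median itself, and Hspe1, Hsph1, Dnajb1 and Hspb1 lay at -0.06, -0.06, -0.12 and -0.13.

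**Figure D4:**
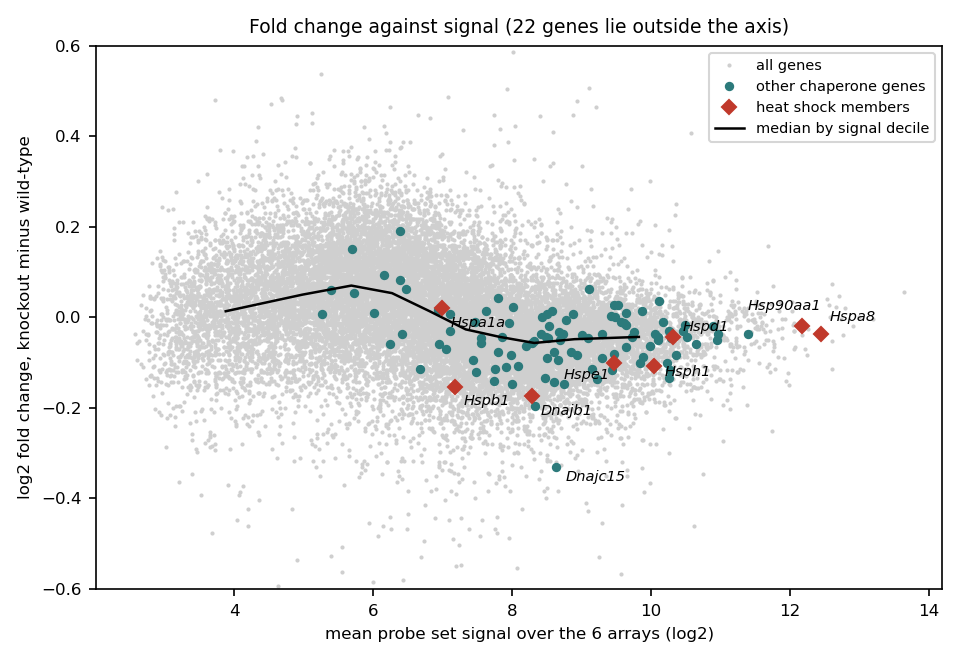
Log2 fold change, knockout minus wild-type, against mean log2 signal over the 6 arrays for 19938 genes (grey), the other chaperone genes (green) and the 8 heat shock members (red), with the median of each signal decile as a black line. The other chaperone genes lie on both sides of the line. Relative to the median of their own decile, the members run from -0.13 (Hspb1) to 0.02 (Hsp90aa1). The line lies at -0.04 in the brightest decile and at 0.07 in the third, and 22 genes beyond 0.6 in either direction are not drawn.

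Among the other HSP70 and HSP110 genes 10 of 11 were lower, the median log2 fold change was -0.05 and none was at an unadjusted p under 0.05. Hspa13, an HSP70 of the endoplasmic reticulum, differed by -0.13 (SE 0.07), Hspa2, an HSP70 known for its role in sperm development, by -0.12 (SE 0.06) and Hspa4l, a second HSP110, by -0.12 (SE 0.07). Among the HSP90 relatives and co-chaperones 14 of 16 were lower and 2 higher, with a median of -0.08 and again none at that p. Sugt1, an HSP90 co-chaperone, differed by -0.14 (SE 0.07), Stip1, which hands clients from HSP70 to HSP90, by -0.13 (SE 0.07) and Trap1, the mitochondrial HSP90, by -0.11 (SE 0.07).

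Of the heat shock factors 4 of 5 were measured, without Hsf1 itself, with 2 higher, 2 lower and a median of -0.01. Hsf2, a second heat shock factor, read 8.17, 8.26 and 8.25 in the knockout and 8.55, 8.34 and 8.38 in the wild-type. The genotypes did not overlap, with a log2 difference of -0.20 (SE 0.07, limma adjusted p = 0.337). Hsf5 differed by 0.06 (SE 0.08) and Hsbp1, which binds HSF1, by -0.03 (SE 0.06).

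The small heat shock proteins other than Hspb1 went in both directions, 6 higher and 4 lower, with a median of 0.01. All 6 higher genes were dim, in signal deciles 2 to 4, where the medians of all genes were 0.05 to 0.07. The 4 lower ones were brighter, in deciles 6, 7 and 10, where those medians were -0.03, -0.04 and -0.04. The part of the signal slope in this split was not tested. Cryaa, a crystallin known from the eye lens, read 6.45, 6.49 and 6.52 in the knockout and 6.16, 6.41 and 6.32 in the wild-type, differing by 0.19 (SE 0.07, limma adjusted p = 0.353). Hspb8, which works with BAG3 in selective autophagy of misfolded proteins, read 7.99, 7.94 and 7.84 in the knockout and 8.07, 8.03 and 8.11 in the wild-type, differing by -0.15 (SE 0.06, limma adjusted p = 0.379). Neither gene's genotypes overlapped. Hspb7, a heart and muscle member, differed by 0.15 (SE 0.08). Skeletal muscle markers went both ways. Of 22, 17 were higher in the knockout and 5 lower, with a median of 0.14 and a mean level of 6.45 to 6.62 in knockout arrays and 6.42 to 6.51 in wild-type arrays. Their 1 called gene fell, Ttn, which encodes titin, at -0.95 (limma adjusted p = 0.00206), and the highest, Tnnc2 of fast muscle troponin, was at 0.39; both were picked after their values were seen. Ttn thus went against most of its list, and whether its fall reflects muscle content was not tested. The part of muscle in the small heat shock values was not tested either.

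Of the J-domain co-chaperones other than Dnajb1, 19 of 24 were lower, 4 higher and 1 at 0, with a median of -0.04. Dnajc15, a J-domain protein of the inner mitochondrial membrane, had the lowest log2 fold change of the 102 genes. It read 8.41, 8.56 and 8.41 in the knockout and 8.83, 8.74 and 8.80 in the wild-type. The difference of -0.33 (SE 0.06) was larger than the spread between arrays, whose genotypes did not overlap, and did not pass over all genes (limma adjusted p = 0.159). It passed when limma used an intensity trend with robust priors (adjusted p = 0.0203) and among the genes at or above the median signal (adjusted p = 0.0434). Over all alternatives its adjusted p ran from 0.0203 to 0.910. Dnajc6, the auxilin that works with HSC70 on clathrin coats, differed by -0.12 (SE 0.06), and Dnajc19, another mitochondrial J-domain protein, by -0.11 (SE 0.05), both without overlap of the genotypes.

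Of the nucleotide exchange and partner proteins of HSP70, 6 of 10 were lower, and the median log2 fold change was -0.03. Bag1, an HSP70 exchange factor, read 8.66, 8.70 and 8.66 in the knockout and 8.88, 8.83 and 8.75 in the wild-type, without overlap and with a difference of -0.15 (SE 0.06, limma adjusted p = 0.358). Hspbp1, another exchange factor, differed by -0.11 (SE 0.06) and Bag4 by 0.04 (SE 0.06). Of the TRiC chaperonin and prefoldin, which fold actin and tubulin, 11 of 14 were lower and 3 higher, with a median of -0.04. Cct8, Cct6a and Tcp1, all TRiC subunits, differed by -0.10, -0.09 and -0.08. Of the mitochondrial chaperones and proteases other than Hspd1 and Hspe1, 15 of 18 were lower, 2 higher and 1 at 0, with a median of -0.05, led by Dnajc15 and followed by the protease gene Htra2 at -0.14 (SE 0.06). Dnajc19, given above, was the next gene of that list.

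The targeted gene read 4.42, 4.36 and 4.21 in the knockout, against 4.75, 5.06 and 4.96 in the wild-type, and its genotypes did not overlap (difference -0.59, SE 0.09, limma adjusted p = 0.105). All 16 hair cell and 14 supporting cell markers were measured, and 10 and 13 of them lay above the array median on all 6 arrays. Hair cell markers were higher in 10 and lower in 6, with a median of 0.04. Their genotypes did not overlap for 5 higher and 0 lower genes, where 6.59% and 11.3% of all genes were higher and lower in that way. Supporting cell markers were higher in 7 and lower in 7, with a median of 0.02, and no marker of either list passed (smallest limma adjusted p = 0.0923). The part of these cells in the chaperone values was not tested. Fewer cells of a type and less RNA per cell cannot be told apart in such tissue RNA. Immediate early genes, which handling of tissue is known to induce along with Hspa1a, were higher in 16 and lower in 12 of 28, with a median of 0.01 and mean levels of 7.13 to 7.21 in knockout and 7.11 to 7.19 in wild-type arrays. Y-linked genes were lower in the knockout in 3 of 3 measured, with mean levels of 7.39 to 7.58 in knockout and 7.65 to 8.05 in wild-type arrays. With their level as a covariate the members' median fold change was -0.03, and 0 of 8 members passed. That level itself separates the genotypes, and with it 0 genes were called in all. Pjvk had a limma adjusted p of 0.910 there. The fit with this covariate therefore cannot show whether a member differs. Bone markers were higher in 8 of 8, with mean levels of 8.67 to 9.14 in knockout and 8.64 to 8.84 in wild-type arrays. Knockout replicate 1, the array with the low chaperone signals, stood highest for them, at a median deviation of 0.38, and the part of carried bone in the chaperone values was not tested. Red blood cell markers (3 of 11 measured), neuron markers (10 of 10) and myelinating glia markers (7 of 10) had medians of 0.00, 0.00 and 0.02.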

How the data were processed

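Total RNA of 6 organ of Corti samples, 3 knockout and 3 wild-type as the sample titles and genotype labels give them, was measured on Affymetrix mouse gene ST arrays from 100 ng of RNA, per the labels' protocols. The deposited values are log2 signals, made by the authors with the Affymetrix Expression Console per the submitters' processing notes, which give no version. How they were summarized and normalized is not given in the sources used here. Array medians lay between 6.66 and 6.69, and nothing was normalised further in the main analysis. Close medians do not exclude a shift that depends on signal. The median log2 fold change of all genes ran from 0.07 in signal decile 3 to -0.06 in decile 8. With quantile normalization or cyclic loess the members' median was -0.04, against -0.07 in the main analysis. Of 35557 probe sets, 21789 had 1 gene symbol in a dated platform annotation, and 21698 of them matched by gene identifier to RefSeq genes. The probe set with the highest mean stood for a gene, which left 19938 genes. Where several probe sets carried 1 symbol, which of them reads the gene most specifically was not assessed.

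The genotype comparison used lmFit and eBayes of limma 3.58.1 under R 4.3.3 (4 residual and 4.59 prior degrees of freedom), with Benjamini-Hochberg adjustment over all genes and a call threshold of 0.05. The fit was tested on simulated data with 19938 genes and 200 of them changed in 4 sizes. It recovered 46 of 50 changed by 0.5 on the log2 scale and 50 of 50 at each of 0.75, 1 and 1.5. There were 9 false calls over all sizes together. The simulated noise was independent between genes and arrays. No change as small as those of the members, at most 0.17 in size, was simulated, so the recovery does not apply to them. In the data Pjvk, at -0.59, was not called (limma adjusted p = 0.105). Nothing in the labels ties an array to separate animals, so p-values cover only the spread between the arrays of a genotype, possibly a technical one, and precision is limited by having 6 arrays. The members and lists were chosen with earlier results of these data known. The members and the targeted gene were always named, and of each other chaperone list the 3 genes with the smallest unadjusted p. For Hspa1a and Hspa8 the 4 genes with the highest Pearson r over the arrays were named too. Alternatives were filters on dim genes, other normalizations, other probe set rules, an intensity trend, a replicate block, a Y-linked covariate and leaving out each array.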

Additional observations from a re-analysis of the deposited data

How the results depend on the processing

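None of the 8 chaperone genes passed the adjusted limma test under any of 16 alternatives, and the smallest adjusted p of a member over all of them was 0.293, for Hspb1 among genes at or above the median signal. Without adjustment, 0 or 1 member had p under 0.05 in each alternative. Of 127 member values under alternatives, 123 kept their direction. Hspa8 turned to 0.016 and Hsp90aa1 to 0.012 with quantile normalization. With an array left out Hsp90aa1 ran from -0.042 to 0.023, above 0 without knockout replicate 1, and Hspa1a from -0.047 to 0.098, below 0 without wild-type replicate 3. With the Y-linked covariate, which itself separates the genotypes, Hspa1a was at 0.13, its highest value. The members' median stayed between -0.10 and -0.03. Members whose genotypes did not overlap numbered 1 in the main analysis, and 0 with quantile normalization, cyclic loess or centring on array medians. They numbered 2 with the mean of all probe sets (Hspa8 and Hspb1). With an array left out they numbered 1 to 4, the 4 without knockout replicate 2 (Hspa8, Hspb1, Hsph1 and Hspe1). The share of all genes was 17.8% in the main analysis and is not given for the alternatives. Fewer arrays separate more easily, so the counts with an array left out cannot be set against that share. Of the other chaperone genes 1 (Dnajc15) was called among genes at or above the median signal and 1 with an intensity trend and robust priors. The 7 genes called in all became 20 above the 25th percentile of signal, 45 above the median, 18 with centring, 1 with every probe set on its own, 112 with the intensity trend, 0 with the Y-linked covariate (1087 at an unadjusted p under 0.05), and 2 to 6 with an array left out: 3 without knockout replicate 3, and 2 without wild-type replicate 1 or wild-type replicate 2. With the replicate number as a block 1 gene was called in all, and 0 members. The correlations of same-numbered samples' deviations were 0.08, 0.02 and -0.01, so the numbers were not taken to pair the samples. The causes of these shifts were not tested.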
